A study of Saccharomyces cerevisiae with 19 samples.

Results

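The genes described here are 90 named features of chromosome I of Saccharomyces cerevisiae, of 101 named features on that chromosome and 6437 in the larger of the 2 deposited count tables. They are the features annotated on the same chromosome as SEO1, without 8 genes named in the rule (SEO1, GDH3, ACS1, CDC19, SSA1, PTA1, FLO1 and FLO9) and without the PAU and SNR genes, which removed 11 features in all. The set was chosen after measured ratios between the strains showed that genes of this chromosome moved together, so their RNA-seq differences are given as descriptions, without a test of the set. RNA was measured and DNA copy number was not.

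The study asked what Pcf11 does in yeast. RNA was sequenced from 5 strains with 3 biological replicates each. The host is labelled both S288C and CEN.PK2-1C, and all cultures are labelled 36 h. In Pcf11-AARR, 4 conserved residues of Pcf11 were replaced. In ΔPcf11, the gene is stated to be deleted from the genome. Pcf11-OE2 and Pcf11-OE1 overexpress PCF11, and the submitters name a strong TEF1 promoter and a weak CDC60 promoter without stating which strain carries which. WT is the common reference of all 4 strains, and the same 3 WT libraries serve both count tables. A further 4 libraries come from crosslinking and immunoprecipitation (CLIP) of Pcf11, as 2 immunoprecipitates (IPs) and 2 inputs from cells overexpressing Flag-tagged Pcf11. How many clones stand behind each strain is not given in the sources used here.

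Chromosome I is the smallest nuclear chromosome of budding yeast. Each copy carries 1 point centromere, a short DNA element that binds the kinetochore and lets the copy be passed on at division. Cells that gain or lose a whole chromosome are aneuploid, and in yeast the RNA of most genes on such a chromosome is known to change with the number of copies. Pcf11 is an essential subunit of cleavage factor IA, which cleaves messenger RNA precursors and helps RNA polymerase II to terminate.

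The centromere divides the 90 genes into a long left and a short right arm, so its sequence is shown as the landmark for the positions below. In RefSeq assembly R64, the build of the deposited coordinates, the element lies at chrI:151465-151582, plus strand, and has 118 bases, of which 85.6% are A or T. Capitals mark its outer annotated parts of 10 and 25 bases, and lower case marks the 83-base middle, which is 96.4% A or T.
CEN1: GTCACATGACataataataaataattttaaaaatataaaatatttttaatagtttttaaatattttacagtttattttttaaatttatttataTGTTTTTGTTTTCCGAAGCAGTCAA
The member before it is TFC3 (chrI:147594-151166), a subunit of the polymerase III factor TFIIIC, and the member after it is NUP60 (chrI:152257-154341), a nuclear pore protein.

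Library totals lay between 26211192 and 46296634 reads, and 6248 to 6316 named features had at least 1 read. PCF11, on chromosome IV, checks the labels: its scaled level in CPM (the reads of a gene scaled to the size of its library) was 20.1, 21.9 and 19.6 in Pcf11-AARR, 11.8, 12.9 and 12.2 in those labelled ΔPcf11, 87.6, 66.3 and 70.1 in Pcf11-OE2, 610.4, 566 and 557 in Pcf11-OE1 and 17.5, 13.9 and 13.9 in WT. The libraries labelled ΔPcf11 thus hold PCF11 reads at 0.814 times the WT level. SIR4, on the other strand, overlaps 28.1% of PCF11 and averaged 52.8 CPM in ΔPcf11 and 37.8 CPM in WT. The counting's use of strand is not given in the sources used here, so some PCF11 reads may come from SIR4. Whether the gene is deleted was not tested, and the label is used here only as a name. All 5 listed MATa genes were read in every strain, with a summed level of 207 to 294 CPM in Pcf11-AARR, 334 to 526 in ΔPcf11, 447 to 546 in Pcf11-OE2, 286 to 447 in Pcf11-OE1 and 228 to 247 in WT. Single genes moved more than this sum. In WT the sum was mostly MFA1, at a mean of 196 CPM. MFA1 averaged 129 CPM in Pcf11-AARR, 221 in ΔPcf11, 206 in Pcf11-OE2 and 181 in Pcf11-OE1. The a-factor gene MFA2 averaged 87.7 CPM in Pcf11-AARR, 188 in ΔPcf11, 227 in Pcf11-OE2, 161 in Pcf11-OE1 and 6.33 in WT. The receptor gene STE2 averaged 18.5 to 29.4 CPM in the 4 altered strains and 2.06 in WT, and the agglutinin gene AGA2 5.44 to 19.95 CPM in these strains and 27.8 in WT. URA3, a common selection marker, averaged 504 CPM in Pcf11-AARR, 184 in ΔPcf11, 338 in Pcf11-OE2, 304 in Pcf11-OE1 and 109.7 in WT. The 3 MATalpha genes found in the table summed to 60.2 to 83.2 CPM over all libraries. The gene SEO1, left out of the set, had at most 0.183 CPM in any library of the 4 altered strains, against 12.9, 12.5 and 12.9 CPM in WT. The part of these differences in the values below was not tested.

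Genes of chromosome I were read at a higher level in Pcf11-OE1 than in any other strain. The median member had a log2 fold change of 1.13 against WT, or 2.18-fold, over the 83 members that passed the filter on low counts; the median over all 6119 features tested was 0.03. No other nuclear chromosome came close: their medians ran between -0.19 and 0.10. In the other overexpression strain, Pcf11-OE2, the median member stood at 0.10 against WT, inside the range of -0.10 to 0.16 of the other chromosomes. Compared directly, the members had a median log2 fold change of -0.97 in Pcf11-OE2 against Pcf11-OE1, or 1.96-fold lower in Pcf11-OE2, while the other 15 chromosomes had medians between -0.01 and 0.03.

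In Pcf11-AARR and ΔPcf11, called the mutants here by their labels, the members moved less than in Pcf11-OE1. The median member was at -0.06 in Pcf11-AARR against WT, within the range of -0.07 to 0.11 of the other chromosomes. Over all 92 tested features of chromosome I, with the left-out genes, the median was -0.11, below that range. In ΔPcf11 the median member was at -0.25 against WT, outside the range of -0.07 to 0.06 of the other chromosomes. Between these strains, Pcf11-AARR against ΔPcf11, it was at 0.12, where the other chromosomes lay between -0.06 and 0.06. All comparisons with WT share the same WT libraries.

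The single libraries gave the same order, except that Pcf11-AARR and WT libraries interleaved. The median log2 ratio of the members to the WT mean, with 0.5 CPM added to both, was -0.12, -0.01 and -0.06 in the 3 Pcf11-AARR libraries. It was -0.23, -0.29 and -0.31 in ΔPcf11. It was 0.11, 0.10 and 0.06 in Pcf11-OE2 and 1.11, 1.06 and 1.06 in Pcf11-OE1. The WT libraries themselves scattered over -0.02, -0.02 and 0.04. All 3 Pcf11-OE1 libraries stood apart from the other 12, and all 3 ΔPcf11 libraries were lower than any other library. Of 83 members, 76 to 77 were above the WT mean in each Pcf11-OE1 library, against 43 to 46 in the Pcf11-OE2 libraries. In bulk RNA, a higher level in every cell and a much higher level in some cells of the culture cannot be told apart.

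**Figure D1:**
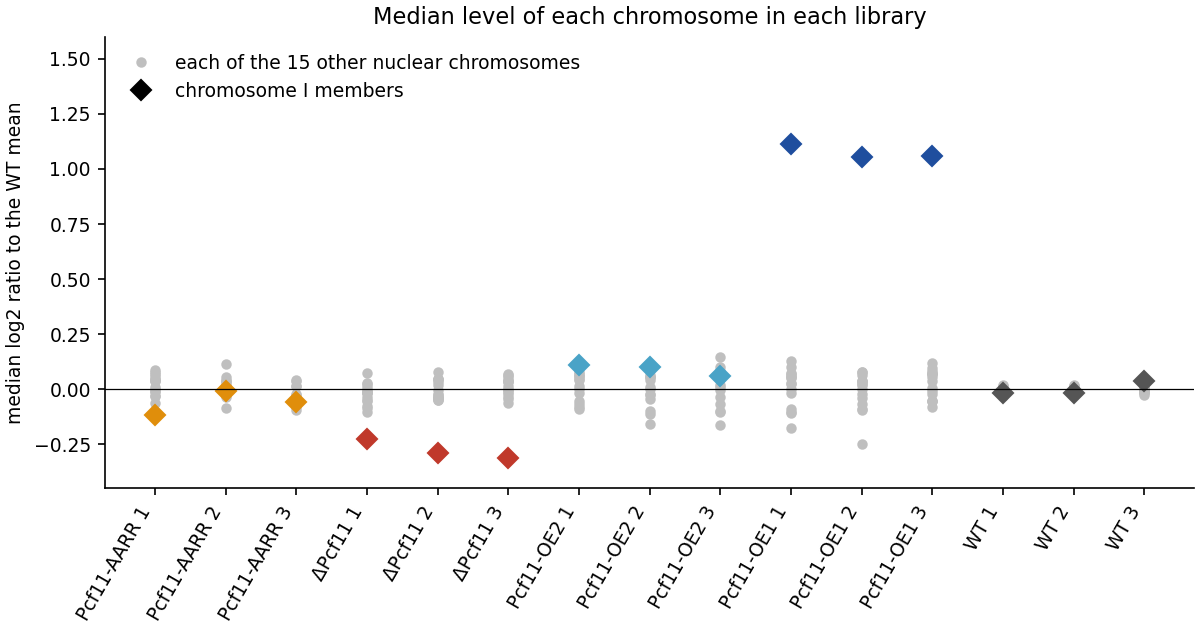
Median log2 ratio to the WT mean (vertical axis) in each of the 15 libraries (horizontal axis). Diamonds show the chromosome I members and grey points each of the other 15 nuclear chromosomes; the 3 Pcf11-OE1 diamonds sit between 1.06 and 1.11, above all grey points, and the 3 ΔPcf11 diamonds between -0.31 and -0.23, below all grey points of their libraries.

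The place of Pcf11-OE1 is the same in plain read shares, which need no scaling factor and follow the most read genes. The members took 0.814% ± 0.0594 of all reads on named features in Pcf11-AARR, 0.660% ± 0.0464 in ΔPcf11, 1.04% ± 0.0236 in Pcf11-OE2, 2.17% ± 0.0735 in Pcf11-OE1 and 0.743% ± 0.0324 in WT (SD, n = 3 each). The share in Pcf11-OE1 was 2.92 times that in WT and exceeded every other library. The ratio of the shares to WT was 1.10 in Pcf11-AARR and 1.40 in Pcf11-OE2, both further up than the median member (0.961-fold and 1.07-fold). In ΔPcf11 it was 0.888, and the highest ΔPcf11 library, at 0.709%, overlapped the lowest WT library, at 0.708%.

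The calls of single genes follow, at a Benjamini-Hochberg adjusted p of 0.05 over all 6119 features by edgeR's quasi-likelihood test; since these contrasts chose the members, nothing is read from the counts. In Pcf11-OE1 against WT, 70 of 83 members were called higher and 4 lower, where 35.3% and 33.2% of all features were called higher and lower. In Pcf11-OE2 against WT, 28 of 83 members were called higher and 22 lower (all features: 33% and 32%). In Pcf11-OE2 against Pcf11-OE1, 0 members were called higher and 63 lower (all features: 0.229% and 1.24%). Only 76 features in the whole table were called lower in that comparison, and the other named features of chromosome I add 4 to the 63 members, which leaves 9 elsewhere.

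In Pcf11-AARR against WT, 24 of 82 members were called higher and 28 lower (all features: 32.5% and 33%). In ΔPcf11 against WT, 13 of 82 were called higher and 38 lower (all features: 32.2% and 33.2%). In Pcf11-AARR against ΔPcf11, 27 of 82 were called higher and 13 lower (all features: 22.4% and 20.2%).

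The median difference between the overexpression strains was nearly level from the left end to base 175000 and smaller beyond it, though not for every gene there. Grouped by their start in windows of 25 kb, the members had median log2 fold changes in Pcf11-OE2 against Pcf11-OE1 between -1.09 and -0.95 in each of the 7 windows over that stretch. The median was -0.78 in the next window, over 9 members, -0.47 in the one after it, over 4 members, and -0.55 in the last, which holds PHO11 alone. The window of 9 includes PRM9 (-0.03) and MST28 (-0.68), which have copies elsewhere in the genome (below). Its members without copies ran from -1.15 (SWH1) to -0.56 (UIP3). Beyond base 175000, the left-out genes PAU7 and FLO1 stood at -1.34 and -0.97. By arm, the 55 tested members of the left arm outside the first 30 kb had a median of -1.004 and the 20 of the right arm outside the last 30 kb a median of -0.93. The 3 tested members of the left end had a median of -1.06, and the 5 of the right end -0.51. Both genes at the centromere lay near the arm medians. TFC3 had 109.9, 110.4 and 110.2 CPM in Pcf11-OE2, against 228, 241 and 236 CPM in Pcf11-OE1 and 116, 97.7 and 99.9 CPM in WT, with no overlap between Pcf11-OE1 and either other strain. NUP60 had 66.6, 65.5 and 62.2 CPM in Pcf11-OE2, against 143, 137 and 129 CPM in Pcf11-OE1.

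**Figure D2:**
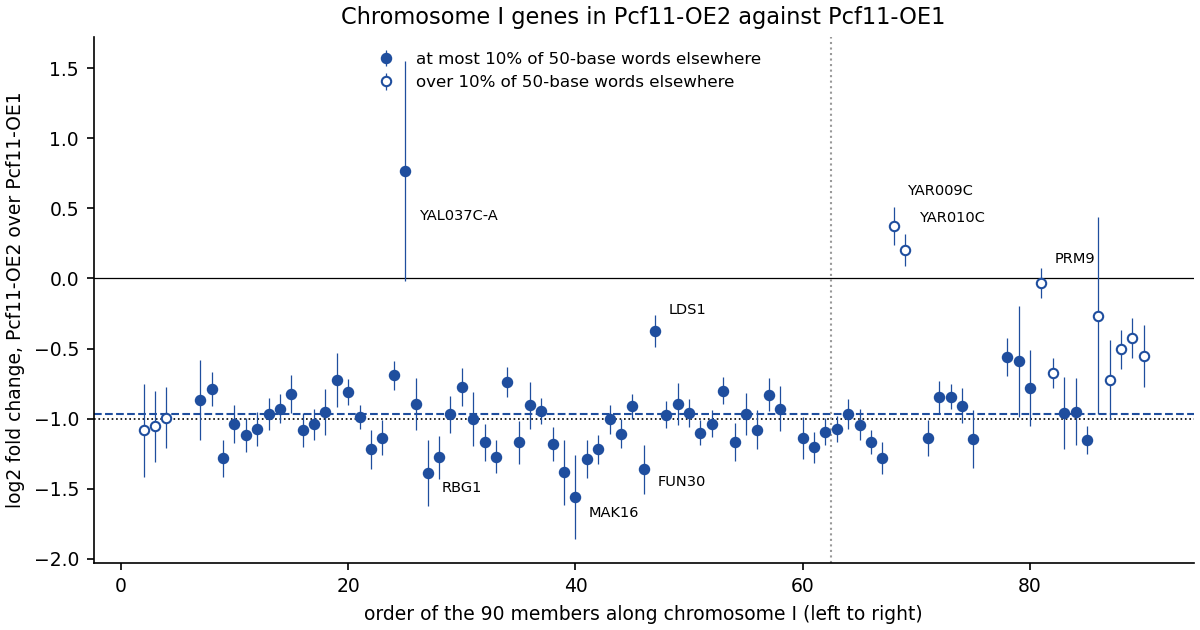
Log2 fold change of Pcf11-OE2 over Pcf11-OE1 (vertical axis, bars show the standard error) for each tested member in its order along chromosome I (horizontal axis). Filled points are members with at most 10% of their 50-base words elsewhere in the genome, open points the others; the dashed line is the median of -0.97, the dotted horizontal line is -1 and the dotted vertical line the centromere, and 62 of the 71 filled points lie between -1.3 and -0.7, with YAL037C-A, LDS1, UIP3 and YAR028W among those above and MAK16, RBG1, HRA1 and FUN30 below.

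Members lay outside this band more often where they had copies elsewhere in the genome. The choice of the members did not use copies, but it did use these ratios. The split by copies was made after the ratios were seen and is given as a description. For 18 of the 90 members, more than 10% of the 50-base words of the feature are also found at another place in the R64 genome. Reads of such genes can be split between copies or dropped, so their values are uncertain. The 12 of them that were tested had a median log2 fold change of -0.53 in Pcf11-OE2 against Pcf11-OE1, with a range of -1.08 to 0.37, and 4 of them lay between -1.3 and -0.7. The other 71 tested members had a median of -1.003, and 62 of them lay between these bounds. All 5 members of the right end have copies elsewhere, so position and copies elsewhere cannot be told apart there. The 3 tested members of the left end also have copies, 19.6% of the words of YAL065C, 41.9% of YAL064W-B and 22.7% of TDA8, yet stood at -1.08, -1.06 and -0.99 and make up 3 of the 4 such members inside the bounds.

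Among the tested members with copies, a pair of Ty1 retrotransposon genes had the highest values in this comparison. Of the words of YAR009C and YAR010C, 96.4% and 100% have a match elsewhere. Whether reads shared with copies set their values was not tested. YAR009C was at 0.37 ± 0.13 in Pcf11-OE2 against Pcf11-OE1 (standard error) and at -0.77 in Pcf11-OE1 against WT. YAR010C had 17, 15.5 and 13.4 CPM in Pcf11-OE2, against 13.8, 12.6 and 13.5 CPM in Pcf11-OE1 and 11.4, 10.5 and 10.6 CPM in WT. Its log2 fold change was 0.20 ± 0.11 between the overexpression strains (standard error), and the ranges overlapped. PRM9, a membrane protein gene of the DUP240 family, has 28.7% of its words elsewhere and stood at -0.03, with 21.5, 21.3 and 23.6 CPM in Pcf11-OE2 and 21, 23.9 and 22.8 CPM in Pcf11-OE1. These 2 groups overlapped. UIP3, of the same family, has no such word elsewhere and stood at -0.56. The acid phosphatase gene PHO11, the last member on the right, has 88.3% of its words elsewhere and stood at -0.55.

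Not all genes outside the band have copies. LDS1, with none, a gene of the outer spore wall, had 10.1, 12.1 and 9.57 CPM in Pcf11-OE2, against 13.5, 14.2 and 13.6 CPM in Pcf11-OE1, a log2 fold change of -0.38 ± 0.12. All 4 altered strains were above WT, which had 4.84, 4.68 and 4.94 CPM, with log2 fold changes of 1.53 in Pcf11-AARR, 1.58 in ΔPcf11, 1.14 in Pcf11-OE2 and 1.51 in Pcf11-OE1. LDS1 was thus about as high in Pcf11-OE1 as in the mutants. YAL037C-A, at 0.77 ± 0.78, was read at under 0.5 CPM on average in every strain.

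The members spread far more in the comparisons with WT. In Pcf11-OE2 against Pcf11-OE1 the interquartile range of the members was 0.32 log2 units, that of all features was 0.22, and 63 of 83 members lay within 0.3 of their median. In Pcf11-OE1 against WT the interquartile range was 0.91 for the members and 1.12 for all features, and values ran between -2.48 (YAR062W) and 3.32 (YAL064W-B). Of 83 members, 62 were above 0.5, 17 lay between -0.5 and 0.5, and 4 were below -0.5. In Pcf11-OE2 against WT, 21 were above 0.5 and 15 below -0.5. Across members, Spearman's rho of the log2 fold change with mean level was 0.10 in Pcf11-OE1 against WT and -0.17 in Pcf11-OE2 against Pcf11-OE1, and with gene length -0.07 and -0.39 (n = 83 genes of 1 chromosome, which share libraries; a description without a test).

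**Figure D3:**
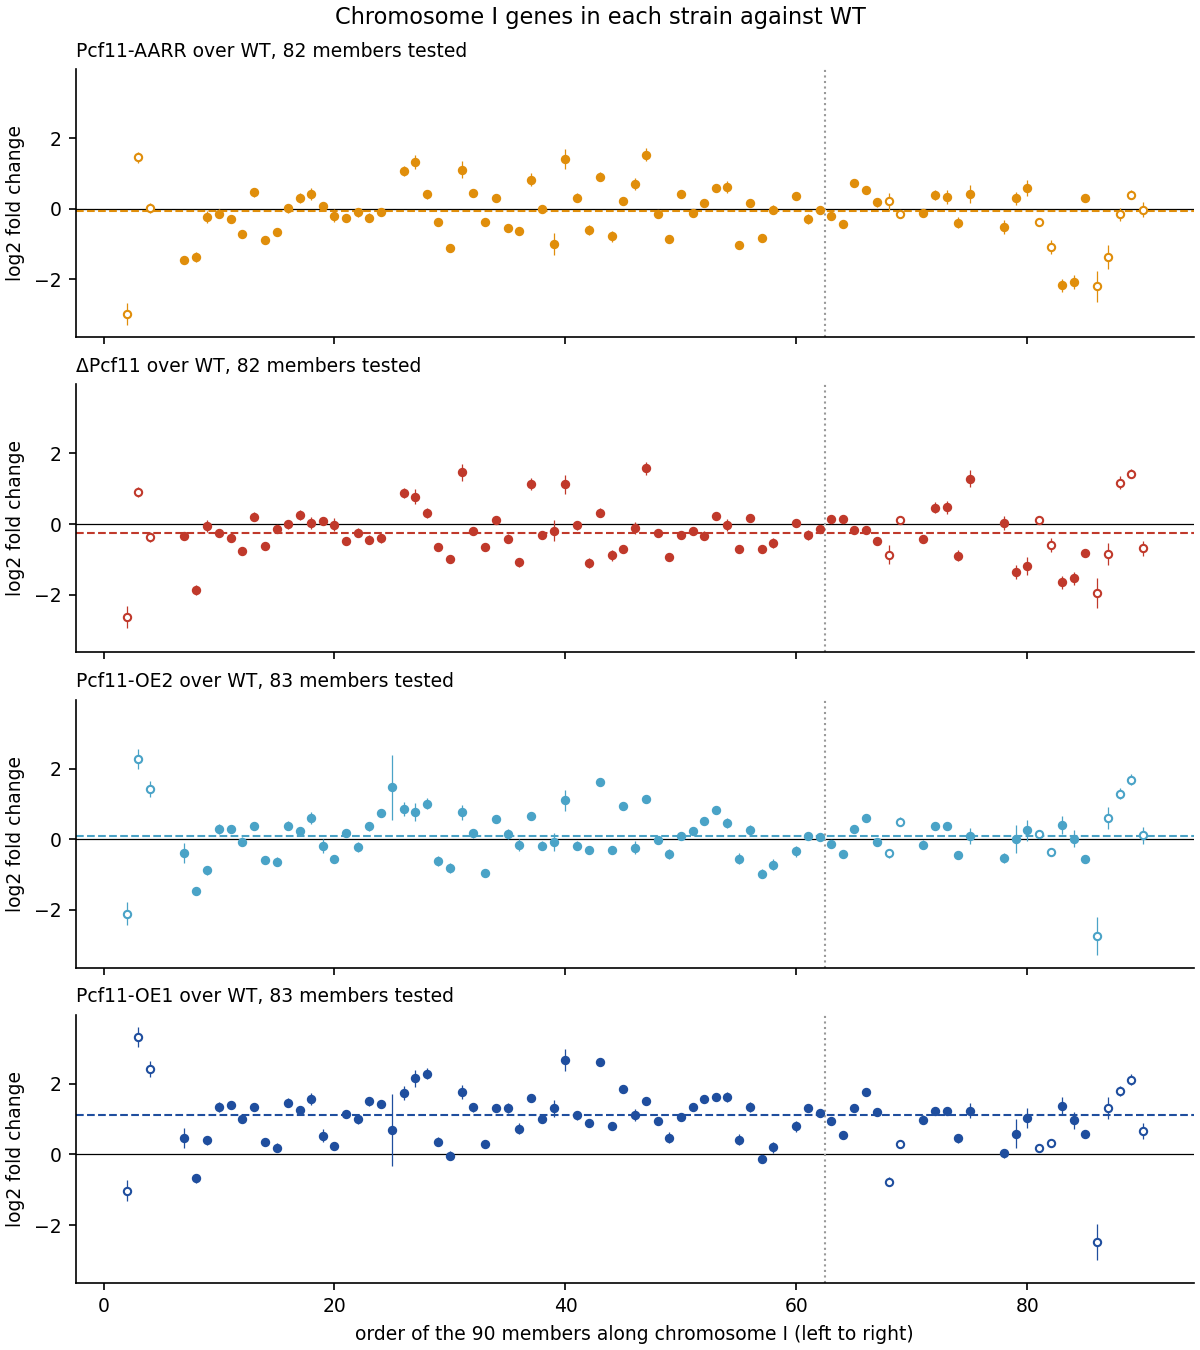
Log2 fold change against WT (vertical axis, bars show the standard error) of each tested member in its order along chromosome I (horizontal axis), with Pcf11-AARR, ΔPcf11, Pcf11-OE2 and Pcf11-OE1 from top to bottom. Open points have over 10% of their 50-base words elsewhere, the dashed line is the median of the members (-0.06, -0.25, 0.10 and 1.13) and the dotted line the centromere; the Pcf11-OE1 points are shifted up along the whole length.

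Genes of RNA processing and translation form the list with the lowest median in Pcf11-OE2 against Pcf11-OE1, -1.22 over 10 of 10 genes, all called lower. All 10 were also called higher in Pcf11-OE1 against WT (median 1.27). Of all tested members, 75.9% were called lower in Pcf11-OE2 against Pcf11-OE1 and 84.3% higher in Pcf11-OE1 against WT. Over all features these shares were 1.24% and 35.3%. Nothing is read from the counts of calls in this list and in the role lists that follow. FUN12, the translation initiation factor eIF5B, had 1002, 1324 and 1293 CPM in Pcf11-OE2, 3323, 3068 and 2371 CPM in Pcf11-OE1 and 598, 623 and 576 CPM in WT. All Pcf11-OE1 libraries were above all Pcf11-OE2 libraries, which in turn were above WT. Its log2 fold change against WT was 1.01 ± 0.15 in Pcf11-OE2 and 2.29 ± 0.16 in Pcf11-OE1.

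MAK16, needed for assembly of the large ribosomal subunit, was the lowest member of all in Pcf11-OE2 against Pcf11-OE1, at -1.56 ± 0.30. Its replicates scattered widely, with 139, 272 and 195 CPM in Pcf11-OE2, 843, 581 and 363 CPM in Pcf11-OE1 and 99.6, 88.6 and 94.1 CPM in WT. It was also higher in Pcf11-AARR, at 221, 261 and 264 CPM, and in ΔPcf11, at 291, 104 and 219 CPM, than in every WT library.

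RBG1, a GTPase that associates with ribosomes, had a log2 fold change of -1.39 in Pcf11-OE2 against Pcf11-OE1, although 43% of it is overlapped by YAL037W. ECM1, a pre-ribosome export factor overlapped over 39.2% of its length by BDH1 and CNE1, was at -1.28 in that comparison. It was at -0.88 in Pcf11-OE2 against WT and 0.40 in Pcf11-OE1 against WT, so it stood below WT in one strain and above it in the other. EFB1, the elongation factor eEF1B alpha, averaged 65.9 ± 4.65 CPM in Pcf11-OE2, 145 ± 28.9 in Pcf11-OE1 and 83.6 ± 9.58 in WT (SD, n = 3 each). PRP45, a splicing factor, averaged 89.7 ± 10.4 CPM in Pcf11-OE2 and 202 ± 21.6 CPM in Pcf11-OE1. POP5, a subunit of RNase P, is overlapped over 67.6% of its length by PRP45 and had 11, 17.4 and 17 CPM in ΔPcf11, against 6.84, 4.12 and 5.47 CPM in WT.

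The upstream sequences of these genes are shown because MAK16, RBG1, FUN12 and ECM1 were the members that hold matches to both motifs known from ribosome-assembly genes, PAC (GATGAG) and RRPE (AAAATTTT). Both strands of the 300 bases before the annotated start were searched, and capitals mark the matches. The sequences come from RefSeq R64; RBG1 and FUN12 are divergent neighbours that share 1 stretch, printed on the FUN12 strand.
MAK16, chrI:101252-101291, minus strand: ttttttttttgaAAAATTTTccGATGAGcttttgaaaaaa
FUN12 and RBG1, chrI:76210-76331, plus strand: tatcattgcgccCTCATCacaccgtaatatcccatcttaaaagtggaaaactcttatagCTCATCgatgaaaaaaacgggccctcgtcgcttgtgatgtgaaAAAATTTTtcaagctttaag
ECM1, chrI:36451-36491, plus strand: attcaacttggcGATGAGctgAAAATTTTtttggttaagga
PAC letters were found before 22 of 90 members (24.4%) and before 18.7% of 6386 features of the nuclear chromosomes. RRPE letters were found before 7 members (7.78%) and before 9.18% of all features. Both were found before 4 members (4.44%) and 4.29% of all features, so the share of members was close to that of the genome. In Pcf11-OE2 against Pcf11-OE1 these 4 members had a median log2 fold change of -1.33, and the 270 features with both matches on other chromosomes had a median of -0.16. These motifs were looked for with the fold changes known, and a match of letters is not evidence of binding. Letters of a stress response element (AGGGG) stood before 21.1% of members and 21.6% of all features, and of the CACGTG core before 5.56% and 3.43%.

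Genes of the secretory pathway and membranes, 15 in number and all tested, had medians of -1.004 in Pcf11-OE2 against Pcf11-OE1 and 1.16 in Pcf11-OE1 against WT. All 15 were called lower in the first comparison, and 14 were called higher in the second. SNC1, a vesicle SNARE of the plasma membrane, had 248, 227 and 214 CPM in Pcf11-OE2, 368, 381 and 401 CPM in Pcf11-OE1 and 137, 155 and 171 CPM in WT, with 3 separate ranges. ERV46, which cycles between the endoplasmic reticulum and the Golgi, had 250.3, 256 and 259 CPM in Pcf11-OE2 and 493, 529 and 500.0 CPM in Pcf11-OE1, a log2 fold change of -0.99 ± 0.08. In WT it had 214, 232 and 237 CPM, just below Pcf11-OE2.

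FUN26, a transporter of nucleosides, was the member of this list furthest above WT. It had 19.2, 15.6 and 19.5 CPM in Pcf11-AARR, 10.9, 12.8 and 12.5 CPM in ΔPcf11, 29.8, 27.2 and 31.7 CPM in Pcf11-OE2, 62.5, 54 and 61.3 CPM in Pcf11-OE1 and 9.33, 9.32 and 10.2 CPM in WT. Every library of the other 4 strains was above every WT library, by 3.07-fold in Pcf11-OE2 and 6.15-fold in Pcf11-OE1. The ratio of the overexpression strains, -1.004, was close to the median member. PMT2, which adds mannose to proteins in the endoplasmic reticulum, was lower in the mutants, with 19.3, 26.9 and 28.5 CPM in Pcf11-AARR and 16.5, 19 and 17.5 CPM in ΔPcf11, against 41.2, 35 and 38.3 CPM in WT. SWH1, an oxysterol-binding protein, had 189, 173 and 178 CPM in Pcf11-AARR, against 94.3, 74.8 and 80.3 CPM in ΔPcf11, a log2 fold change of 1.11 with no overlap. SPO7, part of a nuclear membrane phosphatase, and ERP1, a p24 cargo protein, stood at -1.08 and -0.97 in Pcf11-OE2 against Pcf11-OE1. ERP1 was at -0.58 in Pcf11-AARR against ΔPcf11, and 65.9% of it is overlapped by NUP60.

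Genes of mitochondria and peroxisomes had medians of -0.89 in Pcf11-OE2 against Pcf11-OE1 and 0.77 in Pcf11-OE1 against WT, with 8 of 10 called lower and 8 of 10 called higher. The range in the second comparison was wide. YAT1, an outer mitochondrial carnitine acetyltransferase, had 144, 152 and 176 CPM in Pcf11-AARR and 301, 198 and 174 CPM in ΔPcf11, against 739.6, 680.5 and 697 CPM in WT. In Pcf11-OE2 it had 1312, 627 and 873 CPM and in Pcf11-OE1 1426, 1666 and 2383 CPM, so Pcf11-OE1 was above WT while Pcf11-OE2 overlapped it. The mutants were 4.5-fold (Pcf11-AARR) and 3.14-fold (ΔPcf11) lower than WT. YAR035C-A lies wholly inside YAT1 on the other strand. Its log2 fold changes were close to those of YAT1 in the mutants against WT and between the overexpression strains. They were lower than those of YAT1 in Pcf11-OE1 against WT (0.97 and 1.37) and in Pcf11-OE2 against WT (0.02 and 0.41). Since the counting's use of strand is not given in the sources used here, reads of the pair may not be separated.

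CYC3, which attaches haem to cytochrome c, had 389, 481 and 443 CPM in Pcf11-OE2, 721, 739 and 659.9 CPM in Pcf11-OE1 and 269, 265 and 250.4 CPM in WT. FUN14, a mitochondrial outer membrane protein, was below WT even in Pcf11-OE1, with 103, 115 and 117 CPM, against 124, 119 and 127 CPM in WT. In Pcf11-OE2 it had 73.4, 55 and 60.2 CPM, 1.96-fold lower than WT. PEX22, a peroxisomal membrane protein, stood at -1.08 in Pcf11-OE2 against Pcf11-OE1 but is overlapped over 88.5% of its length. BOL1, an iron-sulfur cluster assembly factor lying wholly inside GCV3, stood at -0.81.

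All 5 chromatin and transcription genes were called lower in Pcf11-OE2 against Pcf11-OE1 (median -1.04) and higher in Pcf11-OE1 against WT (median 1.32). DEP1, a subunit of the Rpd3L histone deacetylase, had the highest WT level per length of all members, 621 CPM per kilobase. It had 806, 781 and 964 CPM in Pcf11-AARR, 639, 599 and 574 CPM in ΔPcf11, 1069, 1115 and 1071 CPM in Pcf11-OE2, 2095, 2246 and 2337 CPM in Pcf11-OE1 and 736, 774 and 760.3 CPM in WT. The 5 strains did not overlap, in the order Pcf11-OE1, Pcf11-OE2, Pcf11-AARR, WT and ΔPcf11. FUN30, a chromatin remodeller, was at -1.36 ± 0.17 in Pcf11-OE2 against Pcf11-OE1, the lowest after MAK16 and RBG1 among members with a mean of at least 10 CPM. SWC3, of the SWR1 remodelling complex, and SWD1, of the Set1 histone methyltransferase complex, were at -1.17 and -1.04. SWD1 was also higher in Pcf11-AARR, with 39.7, 38.4 and 39.5 CPM, against 19.8, 21.8 and 21.8 CPM in ΔPcf11 and 24.4, 20.4 and 26.1 CPM in WT. OAF1, a fatty acid-responsive activator, was lower than WT in the mutants and in Pcf11-OE2, at -0.88 in Pcf11-AARR, -0.62 in ΔPcf11 and -0.58 in Pcf11-OE2. In Pcf11-OE1 it was at 0.36.

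The 14 genes of the cell cycle, spindle and DNA repair were all called lower in Pcf11-OE2 against Pcf11-OE1 (median -1.01, range -1.29 to -0.84) and all called higher in Pcf11-OE1 against WT (median 1.08). ATS1, which works with microtubules and in wobble-base modification of tRNA, had 219.6, 190.2 and 251 CPM in Pcf11-AARR, 117, 117 and 113 CPM in ΔPcf11, 339, 380.5 and 359.8 CPM in Pcf11-OE2, 691, 655 and 684 CPM in Pcf11-OE1 and 177, 189.7 and 199.7 CPM in WT. TPD3, the scaffold subunit of protein phosphatase 2A, had 248, 184 and 215 CPM in Pcf11-OE2, 417, 327 and 461 CPM in Pcf11-OE1 and 268, 279 and 321 CPM in WT. Its log2 fold change of 0.47 in Pcf11-OE1 against WT was far below the median member. The Glc7-interacting protein gene GIP4 was 1.95-fold lower in Pcf11-OE2 than in WT. SAW1, which helps to remove single-stranded DNA flaps in recombination, was higher in every strain than in WT, with 81, 128 and 105 CPM in ΔPcf11 and 142, 144 and 151 CPM in Pcf11-OE1, against 49.5, 48.8 and 45.4 CPM in WT. BUD14, a regulator of bud site and actin cables, was at -1.14 in Pcf11-OE2 against Pcf11-OE1.

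Of the 7 metabolism genes, 5 were called lower in Pcf11-OE2 against Pcf11-OE1 (median -0.85); 5 were called higher and 1 lower in Pcf11-OE1 against WT (median 0.96). The one that was lower is BDH1, butanediol dehydrogenase. BDH1 had 111, 87.5 and 90.2 CPM in Pcf11-AARR, 56.7, 79.5 and 67.8 CPM in ΔPcf11, 75.8, 88.3 and 104 CPM in Pcf11-OE2, 161, 147 and 155 CPM in Pcf11-OE1 and 259.6, 231 and 248 CPM in WT. WT was above all 12 other libraries, and Pcf11-OE1 above the remaining 9. Its neighbour BDH2, of the same enzyme family, had 275, 255 and 313 CPM in Pcf11-AARR, against 624, 629 and 588 CPM in ΔPcf11 and 759, 735 and 816 CPM in WT, a log2 fold change of -1.13 between the mutants. The Pcf11-OE1 libraries scattered, at 693, 905 and 1601 CPM, and its log2 fold change against WT was 0.47 ± 0.28. GPB2, which acts in glucose signalling to protein kinase A, had 712, 702 and 704 CPM in Pcf11-OE2, 1394, 1387 and 1817 CPM in Pcf11-OE1 and 546, 601 and 591 CPM in WT. ADE1, of purine synthesis, averaged 65.9 ± 8.54 CPM in Pcf11-OE2, 119 ± 8.25 CPM in Pcf11-OE1 and 50.8 ± 4.4 CPM in WT (SD, n = 3 each). KIN3 overlaps 59.7% of ADE1, so reads of the pair may not be separated.

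Of the 6 other named genes, 3 were called lower in Pcf11-OE2 against Pcf11-OE1 (median -0.67) and 3 higher in Pcf11-OE1 against WT (median 0.57). FUN19, of unknown function, is overlapped over 44.3% of its length by MTW1. It had 165, 190.4 and 199 CPM in Pcf11-OE1, overlapping 168, 207 and 195 CPM in WT. Its ratio in Pcf11-OE2 against Pcf11-OE1, -0.77 ± 0.13, still lay inside the band of -1.3 to -0.7. In all 3 other strains FUN19 was below every WT library, at 85.2, 92.8 and 88.9 CPM in Pcf11-AARR, 101, 95.4 and 88.5 CPM in ΔPcf11 and 127, 98.7 and 98.7 CPM in Pcf11-OE2.

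**Figure D4:**
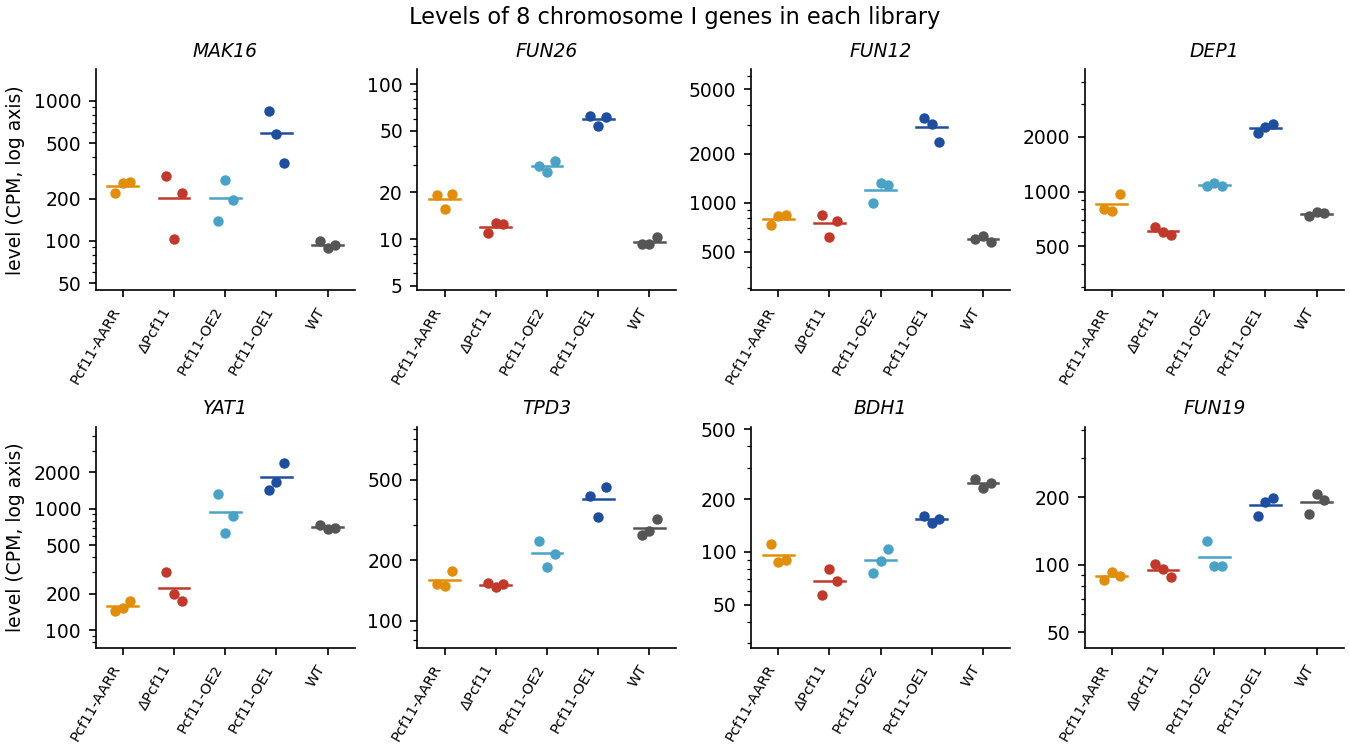
Levels in CPM (log axis) of 8 members in each library, as points, with the mean of each strain as a line; strains run Pcf11-AARR, ΔPcf11, Pcf11-OE2, Pcf11-OE1 and WT from left to right. In all 8 genes Pcf11-OE1 is above Pcf11-OE2 in every library, whereas the place of WT differs: below all other libraries in MAK16 and FUN26 and above all in BDH1.

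In ΔPcf11 all 5 of the lists below had medians below 0 against WT, whereas in Pcf11-AARR their medians lay on both sides of 0. Outside these 5, the metabolism list had medians of -0.33 in ΔPcf11 and -0.14 in Pcf11-AARR. The list of other named genes had medians of 0.07 in ΔPcf11 and -0.44 in Pcf11-AARR, so not every list was below 0 in ΔPcf11. Over all features, 32.5% were called higher and 33% lower in Pcf11-AARR against WT, and 32.2% and 33.2% in ΔPcf11 against WT, and nothing is read from the counts of these short lists. In Pcf11-AARR against WT, 6 of the 10 genes of RNA processing and translation were called higher and 1 lower (median 0.39), and 3 of 5 chromatin genes higher and 1 lower (median 0.61). In ΔPcf11 against WT these lists gave 3 higher and 2 lower (median -0.01), and 0 higher and 2 lower (median -0.16). Genes of mitochondria and peroxisomes had negative medians in both mutants, -0.42 in Pcf11-AARR (1 called higher, 5 lower) and -0.28 in ΔPcf11 (0 higher, 5 lower). For the cell cycle list the medians were 0.06 in Pcf11-AARR (3 higher, 4 lower) and -0.37 in ΔPcf11 (2 higher, 8 lower), and for the secretory list they were -0.11 in Pcf11-AARR (4 higher, 5 lower) and -0.30 in ΔPcf11 (1 higher, 7 lower).

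The remaining 23 members are in no role list, and 16 of them were tested in the overexpression table. Near the left end, YAL064W-B, of unknown function, had the highest log2 fold change of all members in Pcf11-OE1 against WT, at 3.32 ± 0.28, with 76.3, 101 and 57.2 CPM in Pcf11-OE1 and 9.76, 6.08 and 7.64 CPM in WT. TDA8 beside it was at 2.42. The nearby YAL063C-A had 0 reads in Pcf11-AARR, 0 in ΔPcf11, 1 in Pcf11-OE2, 2 in Pcf11-OE1 and 33 in WT, each over 3 libraries. YAL065C averaged 0.261 CPM in Pcf11-AARR, 0.338 in ΔPcf11, 0.491 in Pcf11-OE2, 1.05 in Pcf11-OE1 and 2.14 in WT. YAL063C-A and YAL065C lie within the first 30 kb, as SEO1 does, and all 3 had their highest level in WT. Near the right end, YAR068W was above WT in all 4 strains, at 0.40 in Pcf11-AARR, 1.42 in ΔPcf11, 1.69 in Pcf11-OE2 and 2.11 in Pcf11-OE1, and YAR028W was at 1.66 in Pcf11-AARR against ΔPcf11. YAR068W has 88.6% of its words elsewhere, and YAR028W none. The tRNA genes SUP56, TRN1 and TGA1 and the open reading frames YAL067W-A, the first member on the left, and YAL064W had 0 to 8 reads in all 3 libraries of any strain, which is too few to compare.

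The genes that the rule leaves out had a median close to that of the members between the overexpression strains. It was a log2 fold change of -0.99 in Pcf11-OE2 against Pcf11-OE1 over the 10 tested. Single values ran from -1.63 (snR18) to -0.50 (SSA1), and 4 of the 10 were called lower (all features: 1.24%). PTA1, a subunit of the cleavage and polyadenylation factor, was at -1.19, FLO9 at -1.01 and FLO1 at -0.97, both flocculins. GDH3, glutamate dehydrogenase, was at -1.25 ± 0.39 and CDC19, pyruvate kinase, at -0.87 ± 0.28 (standard error). ACS1, acetyl-CoA synthetase, was at -0.78 ± 0.38 and the chaperone SSA1 at -0.50 ± 0.25. GDH3, CDC19, ACS1, SSA1 and FLO1 were not called in this comparison. Against WT the left-out genes went different ways in Pcf11-OE1, with GDH3 and ACS1 at -1.17 and -1.17 and PTA1 at 1.36.

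CLIP gives a readout that was not used to choose the genes. The authors called peaks in each IP library against its input. A sense peak, on the strand of the gene, was called on 2 of 90 members in the first IP (2.22%) and on 10 in the second (11.1%), against 14.2% and 17.2% of all 6437 named features. No member had a sense peak in both IPs, where 321 named features (4.99%) did. The sense peaks of the first IP lay on YAT1, with 747 reads and a height of 79, and on FUN30, with 9 reads and a height of 9. In the second IP the tallest were on CLN3, a G1 cyclin, at a height of 38, on TPD3 at 36 and on EFB1 at 34. The height is the authors' highest read depth within a peak and is not scaled between lists.

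The members took 1.07% ± 0.0293 of the reads counted on named features in the CLIP inputs (SD, n = 2). Set against Pcf11-OE1, the median member of the 2 inputs was at -0.92 and -1.07 log2 units relative to the median of all features; against Pcf11-OE2 it was at -0.12 and -0.34, and against WT at -0.14 and -0.18. The other chromosomes ran from -0.93 to 0.31 in these 6 pairs, and chromosome VIII was the lowest of them in each pair. Only the values against Pcf11-OE1 lay below the other chromosomes of the same pair. The members were chosen on ratios that involve Pcf11-OE1, so a low value against that strain follows from the choice, and nothing is read from it.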

How the data were processed

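The RNA-seq values are whole read counts per feature, deposited by the authors in 2 tables, one for WT and the mutants and one for WT and the overexpression strains, both with the same WT libraries. Reads were trimmed with fastp 0.23.0, per the submitters' processing notes; for the aligner, the counting tool and its use of strand, the sources used here give nothing. The CLIP peak lists are the authors' own, 1 per IP and made against its input, per the file headers. The authors' headers give the read count and the highest signal (maximum read depth) of each peak, as deposited by the authors.

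Rows without a gene name held 0.872% to 1.38% of the reads and were left out. The names of 2 features damaged by a spreadsheet were restored, and 80 features stand only in the overexpression table. Each table was fitted with edgeR 4.0.16 (R 4.3.3; TMM scaling, filterByExpr, quasi-likelihood test), which tested 6119 features, including 82 members in the mutants' table and 83 in the other; p-values were adjusted over all of them (Benjamini-Hochberg, 0.05). Levels are CPM after TMM scaling. The dispersion, as the biological coefficient of variation, was 0.133 and 0.144. Replicates differed beyond counting noise in all 15 pairs (chi-square per degree of freedom of 37.9 to 381). P-values measure only the spread between these libraries. Positions, copies and sequences come from RefSeq R64, searched with Python 3.11.15, pandas 2.3.3 and numpy 2.4.6; figures used matplotlib 3.10.9.

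The members and lists were chosen with earlier results of these data known. Genes named are the 5 highest and 5 lowest members of each comparison with WT whose mean reached 10 CPM in the group that was higher (3 and 3 without WT), the 4 most read per length of each role list, those at the ends and the centromere, those with fewer than 3 reads in a strain, PCF11 and the genes the rule leaves out; further ones were named after their values were seen. The alternatives were other scalings, DESeq2 1.42.0, no filter, other groupings of the fit, a replicate block, each library left out, and fewer members.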

Additional observations from a re-analysis of the deposited data

How the results depend on the processing

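Where a named member had been called in the main fit, 0 recomputed values changed sign. The 3588 values recomputed over 52 named members also cover comparisons without a call, where changes of sign were not counted. The member median in ΔPcf11 against WT was -0.18 in 1 fit over all 15 libraries and -0.33 over members that overlap no other feature. In Pcf11-OE1 against WT it was 1.04 by DESeq2, 1.05 without a filter on low counts and 1.18 over non-overlapping members. In Pcf11-AARR against ΔPcf11 it was 0.21 over non-overlapping members, and the members called lower there were 8 with only these 2 strains in the fit. Leaving out the 20 most read features gave read shares of 0.966% in Pcf11-AARR, 0.808% in ΔPcf11, 1.30% in Pcf11-OE2, 2.31% in Pcf11-OE1, 0.993% in WT and 1.16% in the CLIP inputs. With only peaks at or above the median height, 1 member had a sense peak in the first IP. Leaving out each library in turn gave medians of -0.09 to -0.01 (Pcf11-AARR against WT), -0.34 to -0.19 (ΔPcf11 against WT), 0.067 to 0.18 (Pcf11-OE2 against WT), 1.09 to 1.17 (Pcf11-OE1 against WT), 0.081 to 0.20 (Pcf11-AARR against ΔPcf11) and -1.01 to -0.94 (Pcf11-OE2 against Pcf11-OE1). Called members in Pcf11-AARR against ΔPcf11 were 17 to 28 higher and 8 to 12 lower, with 17 without ΔPcf11 replicate 3 and 8 without Pcf11-AARR replicate 2. In Pcf11-OE2 against Pcf11-OE1, 49 to 63 were lower. With a replicate block the medians were -0.06, -0.24, 0.10, 1.12, 0.12 and -0.97 in the same order of comparisons, and the members lower in the last numbered 58. Same-numbered libraries correlated between -0.58 and 0.45 in their deviations, so the numbers were not taken as pairs. Restricting to members with at most 10% of their words elsewhere, chosen after seeing the data, gave 1.16 in Pcf11-OE1 against WT and -1.003 in Pcf11-OE2 against Pcf11-OE1. The cause of these moves was not tested. Low counts limit 7 members, which passed the filter in neither table.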
